A study of Mus musculus with 9 samples.

Results

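The enzymes that break down amino acids were read in the liver as a set of 50 genes, chosen by symbol from the pathways for the branched-chain, aromatic, histidine, methionine, serine and glycine routes, the main transaminases and the entry enzymes for glutamine, proline, ornithine and lysine. All 50 symbols were present among the 27179 genes of the table. The samples were pieces of the liver m-lobe of 9 wild-type C57BL/6J mice on normal chow, profiled by bulk sequencing of poly(A) RNA. Each mouse was injected through the retro-orbital route at 17 months of age with the AAV8 vector (3e+11 vector genomes per mouse) and the liver was taken 3 weeks later. In every animal the vector carried saCas9, a small Cas9 nuclease, under the hepatocyte promoter TBG, and a guide RNA driven by U6. The guide was directed at the Rosa26 locus in the controls (sgRosa26, n = 4) and at Ccnd1, the cyclin D1 gene, in the other group (sgCcnd1, n = 5). Controls therefore also received the vector, the nuclease and a guide; cutting at Rosa26 was not measured. The question of the series is what a hepatocyte knockout of Ccnd1 changes in the aged liver. The control libraries are called A, B, C and D, and the sgCcnd1 libraries E, F, G, H and I, in the order of the table. The table names an animal for each, and the labels do not give the sex of the mice. P-values measure the spread between these animals.

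Amino acids that are not needed for protein synthesis lose their amino group, usually to 2-oxoglutarate, and their carbon skeletons are fed into the citrate cycle, ketone bodies or glucose. The liver carries most of these routes, with the exception that the first transamination of leucine, isoleucine and valine takes place largely in muscle and other tissues. In hepatocytes, several of the genes are known to be induced by fasting, glucagon and glucocorticoids, Tat and Sds being textbook examples, and many are expressed most strongly near the portal vein.

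Depth ranged from 10840595 to 20176201 gene-assigned reads per library. The targeted gene had 684, 800.3, 625 and 867 normalized counts in A to D and 428, 347, 370.1, 339 and 325 in E to I (log2 fold change -1.03, standard error 0.11, limma adjusted p = 0.0116), and every sgCcnd1 library lay below every control. In the fits without B, D, F, H or I its limma adjusted p was between 0.0559 and 0.0852. Normalized counts are reads divided by a size factor for each library. Hepatocyte markers were abundant in all libraries, at a sum of 1818860 to 2198980 normalized counts in sgRosa26 and 1742230 to 2213190 in sgCcnd1 over 8 genes (median log2 fold change 0.02), and 3 kidney markers were listed at 0. Leukocyte markers were lower in 4 of 4 genes, 3 of them at an unadjusted limma p under 0.05. Their sum was 2714 to 3625 normalized counts in sgRosa26 and 1571 to 2559 in sgCcnd1, which do not overlap. Most of it came from Cd74 and Lyz2 (control means 1958 and 991), whose groups do not overlap, while those of Ptprc and Itgam do. Of all genes tested, 1.97% lay below without overlap. T and NK cell markers were lower in 5 of 5 tested, each at an unadjusted limma p under 0.05 (median log2 fold change -1.07, sum 88.5 to 217 normalized counts in sgRosa26 and 47 to 159 in sgCcnd1). Stellate cell markers were lower in 6 of 7 genes (median -0.27, sum 3647 to 5988 normalized counts in sgRosa26 and 3271 to 4928 in sgCcnd1), 3 of them at an unadjusted limma p under 0.05, where 5.74% of all genes tested were lower. B and plasma cell markers were lower in 6 of 6 (median -0.45, sum 228 to 451 normalized counts in sgRosa26 and 171 to 412 in sgCcnd1) and cholangiocyte markers in 3 of 5 (median -0.31, sum 928 to 1906 normalized counts in sgRosa26 and 749.7 to 1165 in sgCcnd1). In each of these lists 1 gene was lower at an unadjusted limma p under 0.05. Of the cholangiocyte markers 2 of 5 were above 0, where 52.9% of all genes tested were. Kupffer and endothelial medians were -0.03 and -0.02. The part of these cells in the results below was not tested. In such tissue pieces, fewer cells of a type and less RNA per cell cannot be told apart. Library H stood apart in that 4 Y-linked genes summed to 2 normalized counts, against 1619 to 2834 in the other 8, so counts are also given without it.

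All 50 genes were expressed, with control means from 118 (Sdsl) to 37638 (Bhmt) normalized counts, and all passed the filter of a mean of at least 10. Together they took 2.47% ± 0.0570 of the normalized counts in sgRosa26 (SD, n = 4) and 2.44% ± 0.0571 in sgCcnd1 (SD, n = 5), ranges that overlap. Per kilobase of exon, the highest control means were those of Gnmt (17226 normalized counts per kb), Hpd (10796), Mat1a (10568), Cdo1 (10079.7) and Tat (8889). The lowest were Mccc1 (70.3) and Sdsl (78.8). Hpd, Mat1a and Cdo1 do not differ in this order beyond the spread between animals, whose coefficient of variation was 6.68% for Hpd, 13% for Mat1a and 10.7% for Cdo1. Over the set, this coefficient in the controls ran from 3.53% (Agxt) to 28.8% (Bhmt), with a median of 10.2%.

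Between the groups, 0 of the 50 enzymes passed limma at an adjusted p under 0.05, where 0.0% of 12993 genes tested were higher and 0.0077% lower (0.0112% of the 8943 genes that reached a mean of 100). At an unadjusted limma p under 0.05, 12 enzymes were higher in sgCcnd1 and 0 lower, that is 24% and 0% of the set. The background was 5.22% higher and 5.74% lower over all genes tested, and 6.47% and 3.92% over those 8943, among which all 50 fall. The 12 were Pcca, Pccb, Acadsb, Hibch, Aldh6a1, Mccc1 and Mccc2 of the branched-chain route, Sds and Sdsl, Aass, Gls2 and Kynu. Groups did not overlap for 4 enzymes, Pcca, Pccb, Acadsb and Sdsl, all higher in sgCcnd1 (8%). The background was 1.92% above and 1.97% below over all genes tested, and 2.45% and 1.35% over the 8943. On whole reads recovered from the table, DESeq2 called Pcca, Pccb and Sds at an adjusted p under 0.05 (6% higher and 0% lower, background 0.262% and 0.539%, or 0.38% and 0.537% over the 8943), and edgeR called 0, with 12 at an unadjusted p under 0.05 (background 10.6% in either direction, and 9.86% over the 8943). At edgeR's adjusted p under 0.05 the background was 0.0077% and 0.0112%. Without library H, DESeq2 called 1 enzyme, Pcca, and over all genes tested 16 higher and 25 lower, against 34 and 70 with it. The edgeR 12 hold Bhmt, lower, in place of Kynu. The median log2 fold change was 0.10 over the 50, with 38 above 0, or 76%. Over all genes tested the median was 0.01 with 52.9% above 0, and over the better expressed 8943 it was 0.04 with 59.9%.

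The values of the set as a whole depended on the scaling. With quantile normalization the median was 0.01, with 27 of 50 above 0, and the count at an unadjusted p under 0.05 was 7 higher and 2 lower (Agxt and Bhmt). The count higher was 6 without control library B, and 8 without G, H or I. Over all genes tested the counts also moved: 678 were higher and 746 lower over all libraries, 570 and 743 with quantile normalization and 488 and 529 without B. Without G, H and I the genes higher numbered 550, 485 and 506. Pcca, Pccb, Acadsb, Sds, Sdsl and Aass, 6 in number, had an unadjusted p under 0.05 in all 22 alternatives.

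**Figure D1:**
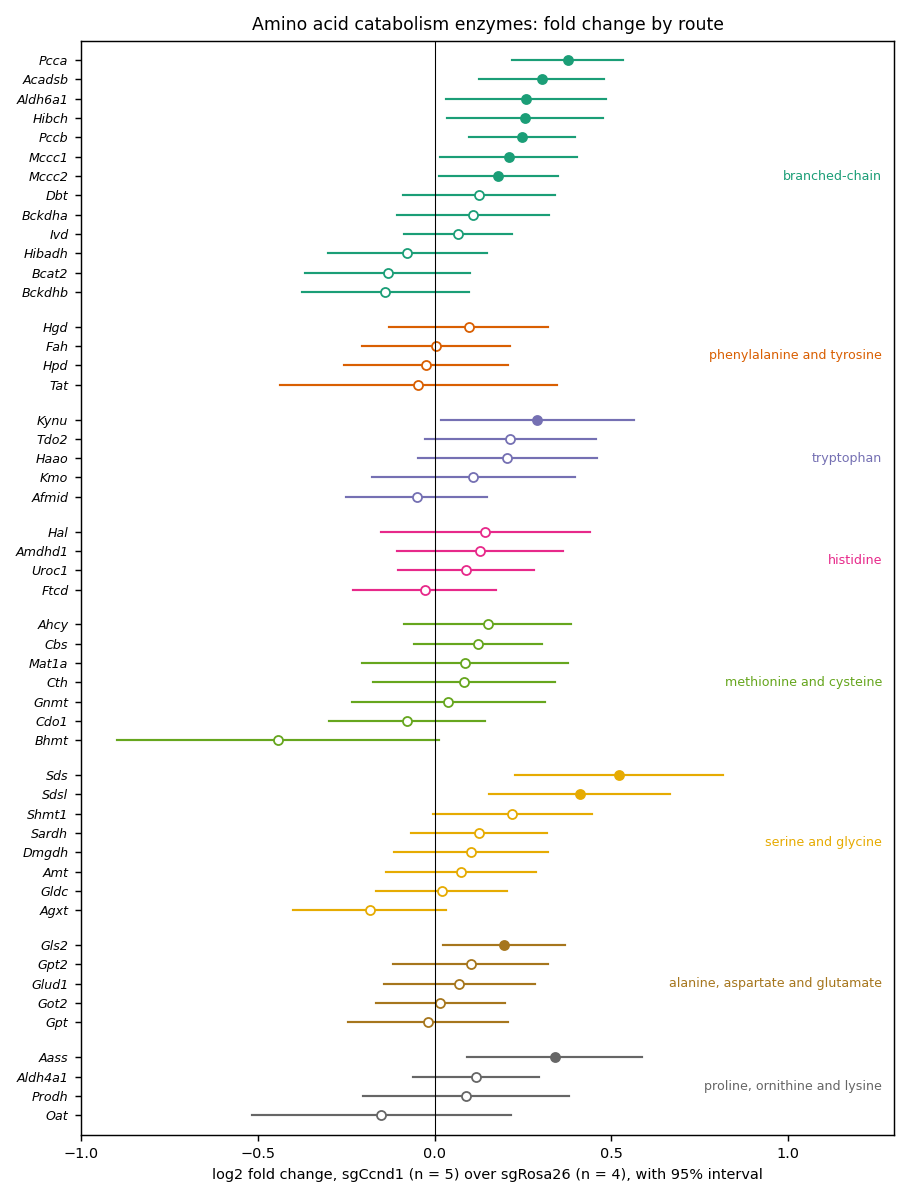
Log2 fold change of sgCcnd1 (n = 5) over sgRosa26 (n = 4) for the 50 enzymes on the x axis, grouped and coloured by route, with limma's 95% interval as a line. Filled points have an unadjusted limma p under 0.05; the 12 filled points all lie above 0, 7 of them in the branched-chain route, and the lowest point is Bhmt at -0.44.

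The routes are compared here by counts and medians, without a test. The branched-chain route had the most enzymes at an unadjusted p under 0.05, 7 of 13, and a median log2 fold change of 0.18. Without Pcca and Pccb, which serve other amino acids as well, 5 of 11 were at that level and its median was 0.13. For Bcat2, Bckdha, Bckdhb and Dbt alone the median was -0.01. Tryptophan had a median of 0.21 with 1 of 5, serine and glycine 0.11 with 2 of 8, histidine 0.11 with 0 of 4, and methionine and cysteine 0.08 with 0 of 7. Phenylalanine and tyrosine had a median of -0.01 with 0 of 4, so both aromatic routes together stood at 0.10 with 1 of 9. The remaining routes stood at 0.07 with 1 of 5 (alanine, aspartate and glutamate) and 0.10 with 1 of 4 (proline, ornithine and lysine). Several of these medians moved by over 1.5 times with the libraries or the scaling used. Tryptophan stood at 0.12 without A, 0.13 without I and 0.11 with quantile normalization, where the branched-chain route stood at 0.16, 0.17 and 0.15. Histidine stood at 0.04 without B and 0.00 with quantile normalization. Methionine and cysteine stood at 0.00 without A, and phenylalanine and tyrosine changed sign, from -0.08 with quantile normalization to 0.04 without H. Proline, ornithine and lysine stood at 0.05 without C and 0.07 without F, and alanine, aspartate and glutamate ran from 0.04 without B to 0.11 without D. With quantile normalization the medians were -0.01 for alanine, aspartate and glutamate, -0.02 for methionine and cysteine, 0.03 for serine and glycine and 0.02 for proline, ornithine and lysine. The branched-chain median stayed between 0.15 and 0.22 in the 22 alternatives. Scored by library as the median deviation of its genes from their control mean, the branched-chain route ran from -0.08 to 0.09 in sgRosa26 and from 0.04 to 0.25 in sgCcnd1. Library E alone of the sgCcnd1 group lay within the control range of this score. For phenylalanine and tyrosine the sgCcnd1 libraries spread on both sides of the controls, from -0.14 in I to 0.18 in G.

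**Figure D2:**
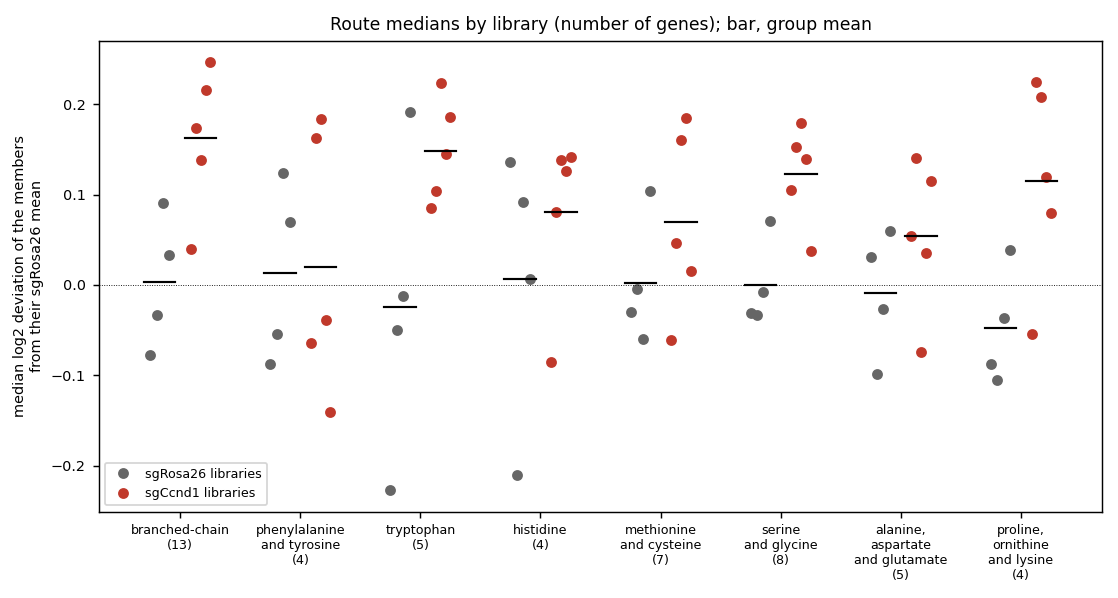
Median log2 deviation of the genes of each route from their sgRosa26 mean (y axis), by route (x axis, with the number of genes), 1 point per library and a bar at the group mean. In the branched-chain route 4 of 5 sgCcnd1 libraries lie above the highest control, while in the phenylalanine and tyrosine route the groups overlap on both sides.

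Within the branched-chain route, 10 of 13 log2 fold changes were above 0, with the highest for the alpha subunit of propionyl-CoA carboxylase. Propionyl-CoA carboxylase turns the propionyl-CoA left from isoleucine, valine, methionine and threonine into methylmalonyl-CoA, and is built of an alpha subunit (Pcca, Entrez 110821, chr14:122484365-122889944) and a beta subunit (Pccb, Entrez 66904, chr9:100982032-101034940). Pcca had 916, 899, 1009 and 969 normalized counts in A to D and 1167, 1198, 1244, 1295 and 1250.4 in E to I. Every sgCcnd1 library was above every control, the nearest being C and E. The means went from 948 ± 50.2 (SD, n = 4) to 1231 ± 49.7 (SD, n = 5) (log2 fold change 0.38, standard error 0.07, limma adjusted p = 0.225; DESeq2 adjusted p = 0.000766). Pccb had 2096, 2282, 2264 and 2087 normalized counts in A to D and 2588, 2532, 2560.1, 2674 and 2587 in E to I. Again the groups did not overlap, and the spread within sgCcnd1 was the smallest of the 50 enzymes, with a coefficient of variation of 2.06% (log2 fold change 0.25, standard error 0.07, limma adjusted p = 0.266; DESeq2 adjusted p = 0.0334). The ratio of Pcca to Pccb normalized counts was 0.435 ± 0.0298 in sgRosa26 (SD, n = 4) and 0.476 ± 0.0147 in sgCcnd1 (SD, n = 5), with overlapping groups. Leaving out any 1 library kept the log2 fold change of Pcca between 0.35 and 0.41 and that of Pccb between 0.23 and 0.27. 

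Acadsb (Entrez 66885, chr7:131410601-131446211), the short/branched-chain acyl-CoA dehydrogenase of the isoleucine arm, had 1834, 1766, 2074 and 1985 normalized counts in A to D and 2382, 2182, 2217, 2513 and 2518 in E to I. All 5 sgCcnd1 libraries were above all controls (log2 fold change 0.30, standard error 0.08, limma adjusted p = 0.255; DESeq2 adjusted p = 0.0530). Of the enzymes with a RefSeq promoter entry, these 3 had the smallest p, and the bases before their starts are shown (RefSeq windows on GRCm38, on the strand of the gene, without bases that an annotated exon covers). They are the stretches chr14:122534078-122534323 on the + strand for Pcca, chr9:101034941-101035134 on the - strand for Pccb and chr7:131410522-131410600 on the + strand for Acadsb. The Pcca start of that table lies inside the annotated span of the gene. Capitals mark matches, on either strand, to CACCC (the core read by Krüppel-like factors), to TGACG (part of the cyclic AMP response element), to CACGTG (an E-box), to AGAACA (an arm of the glucocorticoid receptor element), to TTGCNNNA (C/EBP) or to CAAAG (HNF4A).
Pcca: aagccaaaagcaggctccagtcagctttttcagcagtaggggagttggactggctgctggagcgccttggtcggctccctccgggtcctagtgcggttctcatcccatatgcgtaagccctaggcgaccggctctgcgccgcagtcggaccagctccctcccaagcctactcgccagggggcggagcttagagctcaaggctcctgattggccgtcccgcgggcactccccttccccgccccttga
Pccb: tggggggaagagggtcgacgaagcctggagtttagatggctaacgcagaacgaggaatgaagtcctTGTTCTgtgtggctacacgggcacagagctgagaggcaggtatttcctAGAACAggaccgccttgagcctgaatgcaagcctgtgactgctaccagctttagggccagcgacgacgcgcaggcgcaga
Acadsb: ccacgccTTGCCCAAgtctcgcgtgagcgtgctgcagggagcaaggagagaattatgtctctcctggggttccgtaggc
The Pcca stretch holds 0 of these matches. The Pccb stretch holds AGAACA in 2 places, of which the first reads TGTTCT on the strand shown, and the Acadsb stretch holds TTGCNNNA in 1 place. Over the 250 bases before each start, AGAACA was found in 16.1% of all 32851 RefSeq windows and in 4 of 45 windows of the 41 enzymes with an entry, and TTGCNNNA in 29.3% and in 15 of 45. The others were CACCC at 52% of all windows and 26 of 45, TGACG at 17.8% and 5, CACGTG at 6.02% and 2, and CAAAG at 48.6% and 23. A match describes letters and is no binding site by itself. Dbt, Kynu, Mat1a, Cth, Cdo1, Sds, Sdsl, Gpt and Gls2 had no entry.

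In the valine arm, Hibch, which releases 3-hydroxyisobutyrate from its CoA ester, had 816, 939.6, 1079 and 1019.7 normalized counts in A to D and 1002, 1182, 1195, 1081 and 1282 in E to I. Libraries F to I were above all controls and E lay inside their range (log2 fold change 0.25, standard error 0.10, limma adjusted p = 0.384). Aldh6a1, methylmalonate semialdehyde dehydrogenase, had 6208, 4890.2, 6526 and 5174 normalized counts in A to D and 6317, 6163, 6912, 7199 and 7332 in E to I. Libraries G, H and I were above all controls, while E and F lay below control C (log2 fold change 0.26, standard error 0.10, limma adjusted p = 0.393). Hibadh, the dehydrogenase between these steps, had 3965 to 5584 normalized counts in sgRosa26 and 4139 to 4968 in sgCcnd1 (log2 fold change -0.08, limma adjusted p = 0.818).

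In the leucine arm, both subunits of methylcrotonoyl-CoA carboxylase had higher means in sgCcnd1. Mccc1, the alpha subunit, had 729, 734, 838 and 781 normalized counts in A to D and 764, 867, 911, 963 and 958 in E to I. Library E was within the control range and the other 4 were above it (log2 fold change 0.21, standard error 0.09, limma adjusted p = 0.418). Mccc2, the beta subunit, had 820.1, 813, 906 and 859 normalized counts in A to D and 872, 1034, 934, 999.6 and 976 in E to I. The same 4 sgCcnd1 libraries were above all controls (log2 fold change 0.18, standard error 0.08, limma adjusted p = 0.426). Ivd, isovaleryl-CoA dehydrogenase, had 2421 to 2701 normalized counts in sgRosa26 and 2609 to 2773 in sgCcnd1 (log2 fold change 0.07, limma adjusted p = 0.754).

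For the first steps of the route, the transaminase and the ketoacid dehydrogenase complex, the groups overlapped for Bcat2, Bckdha, Bckdhb and Dbt and did not for Dld. Bcat2, the mitochondrial branched-chain transaminase, had 567 to 743 normalized counts in sgRosa26 and 510.3 to 690.2 in sgCcnd1 (log2 fold change -0.13, limma adjusted p = 0.669). The E1 subunits of the branched-chain ketoacid dehydrogenase stood at 0.11 for Bckdha and -0.14 for Bckdhb on the log2 fold change scale (limma adjusted p = 0.706 and 0.660), and the E2 subunit Dbt at 0.13 (0.664). The 95% intervals were -0.11 to 0.32 for Bckdha, -0.38 to 0.10 for Bckdhb and -0.09 to 0.34 for Dbt, so the fold change of Pccb lies within the interval for Bckdha and Dbt and above it for Bckdhb. The log2 fold change of Pcca, 0.38, lies above each of these intervals. Dld, the E3 subunit, which other ketoacid dehydrogenases share, is not among the 50 and had 1548, 1515, 1666 and 1638 normalized counts in A to D and 1791, 1851, 1892, 2015 and 2056 in E to I. All its sgCcnd1 values were above all controls (log2 fold change 0.27, standard error 0.07, limma adjusted p = 0.266; DESeq2 adjusted p = 0.0496). No test of a difference between early and later steps was run. Within sgCcnd1, library E was the lowest for Bckdhb, Ivd, Mccc1, Mccc2, Hibch, Hibadh and Pcca. The lowest was F for Bcat2, Acadsb, Aldh6a1 and Pccb, I for Bckdha and G for Dbt.

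**Figure D3:**
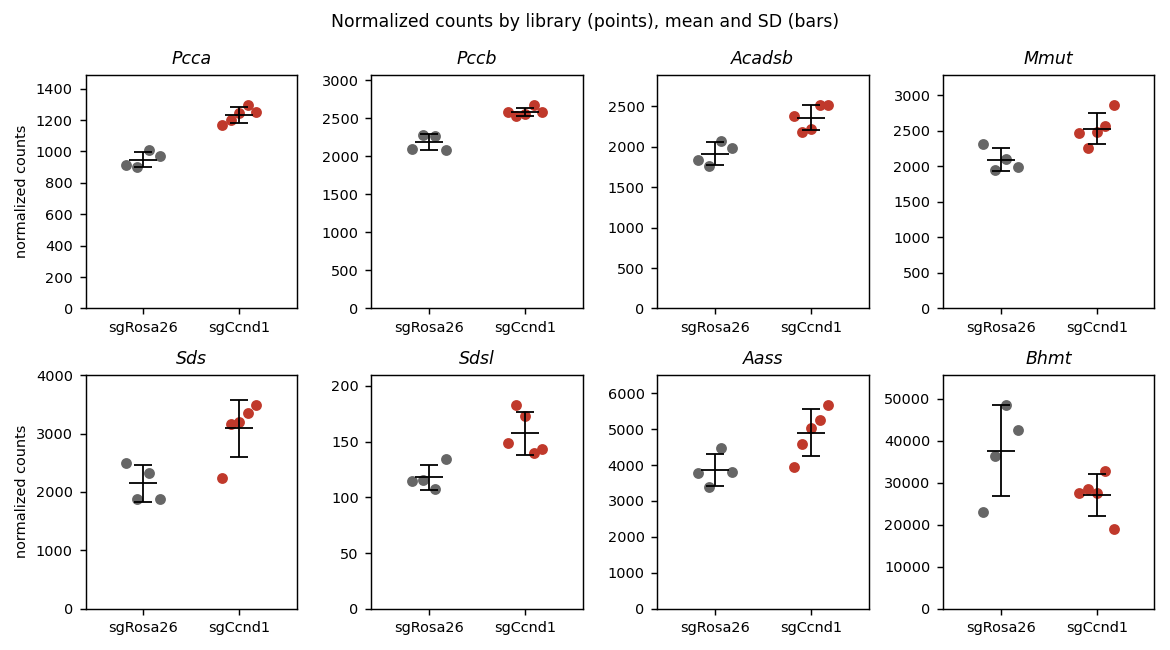
Normalized counts by library (points) with the group mean and SD (bars) for 7 enzymes of the set and for Mmut, the next enzyme after propionyl-CoA carboxylase; each y axis starts at 0. Groups do not overlap for Pcca, Pccb, Acadsb and Sdsl, Sds has library E near the controls, and Bhmt spreads widely in the controls.

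Serine dehydratase showed the highest fold change of the 50. Sds (Entrez 231691, chr5:120476547-120483932), which turns serine into pyruvate and ammonia, had 2499.7, 1878, 2322 and 1879 normalized counts in A to D and 2245, 3166, 3203, 3349.6 and 3483 in E to I. Libraries F to I were above every control and E was inside the control range. The means went from 2145 ± 316 (SD, n = 4) to 3089 ± 488 (SD, n = 5) (log2 fold change 0.52, standard error 0.14, limma adjusted p = 0.253; DESeq2 adjusted p = 0.0419). Without E the log2 fold change was 0.63. Its neighbour on the same chromosome Sdsl (Entrez 257635, chr5:120458193-120472825), a serine dehydratase-like enzyme, had the fewest normalized counts of the set, before any correction for length, with 114, 116, 108 and 134 normalized counts in A to D and 149, 183, 173, 139.9 and 143 in E to I. The groups did not overlap, with D the highest control and H the lowest sgCcnd1 library (log2 fold change 0.41, standard error 0.12, limma adjusted p = 0.279; DESeq2 adjusted p = 0.163). The 2 genes are related in sequence, and how reads that fit both were counted is not given in the sources used here. The ratio of Sds to Sdsl was 18.4 ± 3.90 in sgRosa26 (SD, n = 4) and 19.8 ± 4.10 in sgCcnd1 (SD, n = 5).

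Other serine and glycine enzymes lay closer to the controls. Shmt1, the cytosolic enzyme that interconverts serine and glycine, had 2216, 2691, 2491 and 2816 normalized counts in A to D and 3221, 3275, 3179.8, 2643 and 2573 in E to I. Libraries E, F and G were above all controls, H and I within them (log2 fold change 0.22, standard error 0.10, limma adjusted p = 0.462). Agxt, which transaminates glyoxylate to glycine, pointed the other way, with 3812 to 4066 normalized counts in sgRosa26 and 2979 to 4061 in sgCcnd1 (log2 fold change -0.18, limma adjusted p = 0.522). Libraries E, F, G and I, 4 of 5, were below every control, and H lay within the control range. In the glycine cleavage system, Gldc had a log2 fold change of 0.02 and Amt of 0.08 (limma adjusted p = 0.952 and 0.807). The choline-derived pair Dmgdh and Sardh, which strip methyl groups from dimethylglycine and sarcosine, had log2 fold changes of 0.10 and 0.13 (limma adjusted p = 0.732 and 0.625).

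In the tryptophan route 4 of 5 fold changes were above 0. Kynu, kynureninase, had 2364, 2406, 3401 and 3032 normalized counts in A to D and 3005, 3169, 3952, 3750.4 and 3148 in E to I. Libraries G and H were above all controls and the remaining 3 lay below control C (log2 fold change 0.29, standard error 0.13, limma adjusted p = 0.426). Tdo2, the dioxygenase that opens the tryptophan ring, had 13194, 12704, 12733 and 14018 normalized counts in A to D and 13948, 14134, 13729.5, 15888 and 19209.5 in E to I. Its value in I was the highest, followed by H and then F, while E and G lay below control D (log2 fold change 0.21, standard error 0.11, limma adjusted p = 0.504). Without I its log2 fold change was 0.13. Haao, the dioxygenase that acts on 3-hydroxyanthranilate, had 6485, 8097, 7685 and 9268 normalized counts in A to D and 8562, 10532, 9619.7, 8647 and 7956 in E to I. Libraries F and G exceeded the highest control, D (log2 fold change 0.21, standard error 0.12, limma adjusted p = 0.537). Without A its log2 fold change was 0.12. Kmo and Afmid, the hydroxylase and the formamidase of the kynurenine branch, had log2 fold changes of 0.11 and -0.05 (limma adjusted p = 0.787 and 0.874).

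The phenylalanine and tyrosine route had overlapping groups for all 4 genes, with 95% intervals that include 0. Tat, tyrosine aminotransferase, had 19101, 22349, 25082 and 18982 normalized counts in A to D and 25344, 26610.4, 22080.4, 14029 and 17570.3 in E to I. The sgCcnd1 libraries covered a wider span than the controls, with H and I below and E and F above them (log2 fold change -0.05, standard error 0.18, limma adjusted p = 0.947). Hpd, the next enzyme, had 22722, 21441, 22633 and 25103 normalized counts in A to D and 20414, 23331, 26683, 21538 and 21284 in E to I. The lowest and the highest value both came from sgCcnd1 (log2 fold change -0.02, standard error 0.11, limma adjusted p = 0.950). Hgd, homogentisate dioxygenase, had 6887, 8053, 9303 and 8891 normalized counts in A to D and 8401, 9351, 9689, 8302 and 8334 in E to I. Control A was the lowest of the 9 and G the highest (log2 fold change 0.10, standard error 0.10, limma adjusted p = 0.756). Fah, fumarylacetoacetase, the last step, had 8893 to 9856 normalized counts in sgRosa26 and 8321 to 10397 in sgCcnd1 (log2 fold change 0.00, limma adjusted p = 0.993). For Fah the 95% interval was -0.21 to 0.21.

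For histidine, the median deviation by library ran from -0.21 to 0.14 in the controls and from -0.09 to 0.14 in sgCcnd1. Hal, histidine ammonia-lyase, had 8151, 5021, 6396 and 5047 normalized counts in A to D and 6475, 6146, 6429, 6791 and 7539 in E to I. The controls spanned all sgCcnd1 values, with A the highest and B and D the lowest of the 9 (log2 fold change 0.14, standard error 0.14, limma adjusted p = 0.721). Amdhd1, imidazolonepropionase, had 4412, 3187, 4225 and 3752 normalized counts in A to D and 3605, 4354, 4567, 4435 and 4228 in E to I. Control B was the lowest, and only G and H exceeded the highest control, A (log2 fold change 0.13, standard error 0.11, limma adjusted p = 0.684). Uroc1, urocanate hydratase, had 9409.8, 7982, 8848 and 9415 normalized counts in A to D and 8463, 9506, 10104, 9411 and 9888 in E to I. Libraries F, G and I exceeded the highest control, D (log2 fold change 0.09, standard error 0.09, limma adjusted p = 0.739). Ftcd, which passes the formimino group to folate, had 7477 to 8586 normalized counts in sgRosa26 and 6989 to 8595 in sgCcnd1 (log2 fold change -0.03, limma adjusted p = 0.936).

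The methionine and cysteine route held Gnmt, Mat1a and Cdo1, among the highest of the set per kb, and its lowest fold change. Bhmt, which remethylates homocysteine with betaine, had 23125, 36499.7, 48450.0 and 42478 normalized counts in A to D and 27597, 28424, 27626, 32854 and 19053 in E to I. Control A was lower than 4 of 5 sgCcnd1 libraries, whereas B, C and D were above all 5. The means were 37638 ± 10836 (SD, n = 4) in sgRosa26 and 27111 ± 5003 (SD, n = 5) in sgCcnd1 (log2 fold change -0.44, standard error 0.21, limma adjusted p = 0.462). Without control A the log2 fold change was -0.66, with an unadjusted limma p under 0.05, and without control C it was -0.30. Ahcy, which hydrolyses S-adenosylhomocysteine, had 11984, 11198, 11741 and 14242 normalized counts in A to D and 12383, 13179, 16046, 14264 and 12373 in E to I. Libraries G and H exceeded the highest control, D (log2 fold change 0.15, standard error 0.11, limma adjusted p = 0.635). Cbs, cystathionine beta-synthase, had 9156, 8551, 7654 and 9029.9 normalized counts in A to D and 9086, 9022, 9584, 9797 and 9209 in E to I. Its values in G, H and I exceeded the highest control (log2 fold change 0.12, standard error 0.08, limma adjusted p = 0.614). The methionine adenosyltransferase Mat1a had a log2 fold change of 0.09, the glycine methyltransferase Gnmt of 0.04, cystathionine gamma-lyase Cth of 0.08 and the cysteine dioxygenase Cdo1 of -0.08, with limma adjusted p from 0.805 to 0.935.

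Of the glutamate-linked enzymes, Gls2, the liver glutaminase, had 5625, 5101, 6045 and 5298 normalized counts in A to D and 6042, 6245, 6169.7, 6437 and 6635 in E to I. Libraries F to I were above every control and E lay just below the highest, C (log2 fold change 0.19, standard error 0.08, limma adjusted p = 0.396). Gpt2, the mitochondrial alanine aminotransferase, had 6049, 7667, 6766 and 7182 normalized counts in A to D and 7774, 8198, 6339, 7094 and 7702 in E to I. Its values in E, F and I exceeded the highest control (log2 fold change 0.10, standard error 0.10, limma adjusted p = 0.735). Glud1, glutamate dehydrogenase, had 18817, 16377, 15978 and 19219 normalized counts in A to D and 18213, 17314, 20129, 17554 and 18998 in E to I. Only G exceeded the controls (log2 fold change 0.07, standard error 0.10, limma adjusted p = 0.826). The cytosolic alanine aminotransferase Gpt had a log2 fold change of -0.02 and the mitochondrial aspartate aminotransferase Got2 of 0.02 (limma adjusted p = 0.963 and 0.961).

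In the proline, ornithine and lysine routes, Aass, the bifunctional enzyme that opens lysine breakdown, had 3773, 3395, 4463 and 3816 normalized counts in A to D and 3955, 4591, 5020.3, 5265 and 5661 in E to I. Libraries F to I exceeded the highest control and E did not (log2 fold change 0.34, standard error 0.11, limma adjusted p = 0.334). Aldh4a1, which oxidises the proline intermediate to glutamate, had 7431, 6527, 6614 and 7355 normalized counts in A to D and 6997, 7965, 7457, 7539.9 and 7885 in E to I. Here 4 of 5 sgCcnd1 libraries were above all controls by small margins (log2 fold change 0.12, standard error 0.08, limma adjusted p = 0.622). Oat, ornithine aminotransferase, which is known to be pericentral, had 5751, 6223, 6754 and 8538 normalized counts in A to D and 4498, 6803, 7429.7, 7354 and 4938 in E to I. Libraries E and I were the lowest of all 9 (log2 fold change -0.15, standard error 0.17, limma adjusted p = 0.765). Prodh, proline dehydrogenase, had 1860.2 to 2914 normalized counts in sgRosa26 and 2042 to 2733 in sgCcnd1 (log2 fold change 0.09, limma adjusted p = 0.842).

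**Figure D4:**
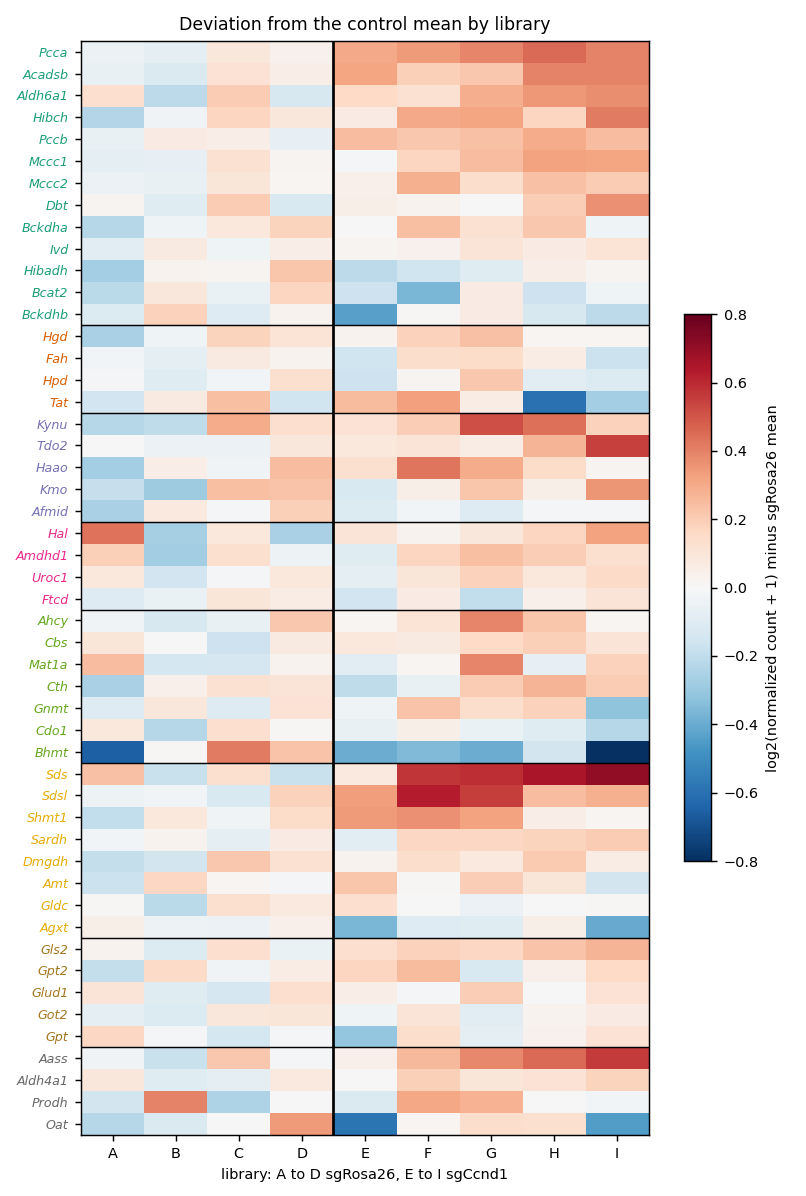
Difference of log2(normalized count + 1) from the sgRosa26 mean for the 50 enzymes (rows, label colour and lines by route) in the 9 libraries (columns, controls left of the thick line); the colour scale is limited at both ends. Pcca, Acadsb and Pccb are red in all 5 sgCcnd1 libraries, Sds is palest in E, and Bhmt is blue in A and in E to I.

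A further list held 54 other genes of amino acid breakdown, of which 51 passed the filter. In limma 0 passed at an adjusted p under 0.05, and 9 were higher and 0 lower at an unadjusted p under 0.05, with 37 above 0 and a median log2 fold change of 0.08. Over all genes tested, 5.22% were higher and 5.74% lower at that level, and 52.9% were above 0. Over genes with a mean of 100 or more these shares were 6.47%, 3.92% and 59.9%. DESeq2 called 2 of the 51, Got1 (adjusted p = 0.000329) and Dld (0.0496), where 0.262% of all genes tested were higher, and edgeR 0. Got1, the cytosolic aspartate aminotransferase, had 2571, 2006, 2345 and 1829 normalized counts in A to D and 3084, 3566, 3799.5, 3127 and 3210.3 in E to I (log2 fold change 0.63). The ratio of Got1 to its mitochondrial counterpart Got2 was 0.277 ± 0.0516 in sgRosa26 (SD, n = 4) and 0.419 ± 0.0515 in sgCcnd1 (SD, n = 5), without overlap. Mmut, methylmalonyl-CoA mutase, which takes up the product of propionyl-CoA carboxylase after epimerisation, had 2315, 1953, 2097 and 1995 normalized counts in A to D and 2468, 2263, 2477, 2566 and 2861 in E to I. Only F overlapped the controls (log2 fold change 0.27, standard error 0.09, limma adjusted p = 0.310). Chosen by role after the values were seen, Mcee, the epimerase, and the cobalamin genes Mmab and Mmaa had log2 fold changes of 0.13, -0.20 and 0.04. Bckdk and Ppm1k, the kinase and the phosphatase of the branched-chain dehydrogenase, had log2 fold changes of -0.08 and 0.23 (limma adjusted p = 0.838 and 0.690). Csad, which decarboxylates cysteine sulfinate towards taurine, had 4954, 10418, 7789 and 8465 normalized counts in A to D and 11372, 10526, 10946, 9565 and 11106 in E to I. Controls A, C and D were below all 5 sgCcnd1 libraries and B among them (log2 fold change 0.48, standard error 0.17, limma adjusted p = 0.338). Its log2 fold change was 0.28 without A. Aspg, an asparaginase, had 3360.4, 3724, 3876 and 3909.9 normalized counts in A to D and 3903, 4755, 4526, 4180.2 and 4201 in E to I, with E within the controls (log2 fold change 0.21, standard error 0.08, limma adjusted p = 0.384).

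Markers of liver zones are given beside these values because several of the enzymes are zoned. Of 9 periportal markers 8 were above 0, with a median log2 fold change of 0.24 and 0 at an unadjusted limma p under 0.05. Over all genes tested 52.9% were above 0, with 5.22% higher and 5.74% lower at that level. Over genes with a mean of 100 or more these shares were 59.9%, 6.47% and 3.92%. Of 11 pericentral markers 5 were above 0, with 1 lower at that level. Their sums overlapped between groups, at 144396 to 203242 normalized counts in sgRosa26 and 184297 to 231491 in sgCcnd1 for the periportal list and 120570.0 to 152157 normalized counts in sgRosa26 and 130263 to 159132 in sgCcnd1 for the pericentral list. Of the 50 enzymes 0 are in either list, and the part of zonation in the enzyme values was not tested.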

How the data were processed

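Bulk RNA-seq of liver pieces from 9 mice was analysed from a single deposited table. The authors deposited an expression signal that the file name calls normalized counts. Per the submitters' processing notes, Trim Galore 0.6.7, HISAT2 2.2.1, featureCounts 2.0.3, FastQC 0.74, MultiQC and DESeq2 2.11.40.8 were used, with the builds mm10 and GRCm38. The annotation, strand setting and treatment of shared reads are not given in the sources used here. In every library 100% of values lay within 0.01 reads of whole multiples of the value of 1 read. Column names give the guide target and an animal number that no label carries, and were matched to groups, not to single samples.

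Genes whose mean signal, as deposited, reached 10 (12993) were tested as log2(normalized count + 1), the scale of all fold changes. Groups were compared with limma 3.58.1 in R 4.3.3 (lmFit, eBayes with trend), two-sided, without covariates. Benjamini-Hochberg adjustment covered every tested gene, with a threshold of 0.05. edgeR 4.0.16 (quasi-likelihood) and DESeq2 1.42.0 were run on the recovered reads of these genes. Both were also run without library H. Depth was at least 10840595 reads.

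Earlier results of these data were known when the members, routes, lists and naming rule were chosen. That rule gave full values to members with an unadjusted limma p under 0.05 and to the 3 smallest p of each route, and, in each further list, to up to 5 genes under 0.05. Marker lists covered hepatocytes and their zones, cholangiocytes, endothelial, Kupffer, stellate, B and plasma, T and NK, leukocyte, red, kidney and pancreas cells. Exon lengths came from GENCODE M21, gene coordinates and promoters from RefSeq GRCm38.p6. Figures used matplotlib 3.10.9 in Python 3.11.15.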

Additional observations from a re-analysis of the deposited data

Results flagged for a closer look

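In 150 groups of values, 7 had a library far from the rest of its group, where chance alone gives about 7.5. No explanation was tested for any of them. In sgCcnd1 library E, Sds was at 2245 normalized counts, and the other 4 sgCcnd1 libraries ran from 3166 to 3483. Sardh was at 9827 in E against 11669 to 12005. The histidine route, as the median log2 deviation from the control mean, stood at -0.0858 in E against 0.0809 to 0.141. Control A had 12.2 M gene-assigned reads (M, 1e+06) against 16.2 to 16.6 M in the other controls, and Nr3c1, the glucocorticoid receptor gene, was at 1214 normalized counts in A against 1037 to 1056. Chac1 was at 45.6 normalized counts in control D against 29.5 to 31.6. Onecut1 was at 632 in sgCcnd1 library H against 46 to 192.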

How the results depend on the processing

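No paired analysis was possible because replicate numbers are absent from the column names. The fits without library H in edgeR and DESeq2 were chosen after seeing the data. Ccnd1 kept its direction in all 22 alternatives. Its log2 fold change was -1.11 to -0.96 in the fits that each left out 1 library, where leaving out B, D, F, H or I took the limma adjusted p past 0.05, and -1.02 with edgeR without H (adjusted p = 0.0560). The number of enzymes past the adjusted threshold, 0 in limma, was 3 higher with DESeq2 and 1 (Pcca) with DESeq2 when H was dropped. It stayed at 0 whichever library limma left out. At an unadjusted p under 0.05, 12 were higher and 0 lower. These numbers were 7 and 2 with quantile normalization, 8 and 2 with rescaling to the 75th percentile, 8 and 1 with array weights, 11 and 1 with edgeR with either scaling, 12 and 1 with DESeq2, 8 and 2 with edgeR without H, and 9 and 2 with DESeq2 without H. Over all genes tested the numbers, 678 and 746, were 570 and 743, 464 and 953, 693 and 744, 574 and 799 (TMM) or 601 and 783 (RLE), 612 and 713, 414 and 592 and 430 and 504 in the same order. Leaving out a library gave 6 (without B) to 12 higher and 0 to 2 lower. The enzyme lower was Bhmt, joined by Agxt where there were 2. Quantile normalization moved the median over the 50 enzymes from 0.10 to 0.0132, that of methionine and cysteine to -0.0177, of serine and glycine to 0.0314 and of alanine, aspartate and glutamate to -0.0101. It also took histidine to 0.00, proline, ornithine and lysine to 0.02 and tryptophan to 0.11. The cause was not tested. The sign turned for Hgd (-0.00972), Uroc1 (-0.0255) and Glud1 (-0.0101) with quantile normalization. It turned for Tat with edgeR (0.0895) and DESeq2 (0.0936) without H, and in fits without C, H or I (-0.140 to 0.0911 over the fits that left out 1 library). It turned for Hpd without D or E (-0.0856 to 0.0186 over such fits). Over all 50 enzymes, 11 turned sign with quantile normalization, and 16 did so in at least 1 of the 22 alternatives: Ivd, Tat, Hpd, Hgd, Fah, Afmid, Uroc1, Ftcd, Mat1a, Gnmt, Cth, Gldc, Dmgdh, Gpt, Got2 and Glud1. Leaving out 1 library also moved the log2 fold changes of Hal (0.06 to 0.29), Oat (-0.23 to -0.04), Amdhd1 (0.04 to 0.19), Gpt2 (0.04 to 0.16), Ahcy (0.09 to 0.22), Cbs (0.07 to 0.15), Hgd (0.01 to 0.15), Uroc1 (0.04 to 0.13) and Glud1 (0.03 to 0.11) by over 1.5 times, none of them past the adjusted threshold. Genes outside the 50 that were named by role, such as Klf15, were not followed across the alternatives.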

Other observations

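Genes around the pathway were read from lists of transporters, regulators, synthesis enzymes and ATF4 targets, and in limma 0 of them passed at an adjusted p under 0.05. Of 20 amino acid transporters tested, 4 were lower and 0 higher at an unadjusted limma p under 0.05, where 5.74% of all genes tested were lower and 5.22% higher. Slc1a4, a neutral amino acid carrier, had 118, 138, 92.9 and 125 normalized counts in A to D and 85.4, 68.9, 54.8, 72 and 35.5 in E to I, without overlap (log2 fold change -0.94, standard error 0.22, limma adjusted p = 0.250; DESeq2 adjusted p = 0.0164). Slc36a1, a lysosomal amino acid exporter, had 909.9, 786, 971 and 835 normalized counts in A to D and 753, 723, 729, 655 and 776 in E to I, also without overlap (log2 fold change -0.27, standard error 0.09, limma adjusted p = 0.322). Slc7a8 and Slc1a5 had log2 fold changes of -0.49 and -0.50 with overlapping groups. Such carriers are also expressed by leukocytes, whose markers were lower in sgCcnd1 as given above, and the part of those cells in these values was not tested.

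Of 19 regulators of amino acid breakdown, 15 were above 0 (median log2 fold change 0.15), 3 of them at an unadjusted limma p under 0.05. Over all genes tested 52.9% were above 0 and 5.22% higher at that level, and over those with a mean of 100 or more 59.9% and 6.47%. Creb1, which mediates cyclic AMP signals, had 294, 236, 282 and 251 normalized counts in A to D and 299, 309.7, 307, 326 and 335 in E to I, without overlap (log2 fold change 0.25, standard error 0.09, limma adjusted p = 0.354). Nr3c1 had 1214, 1056, 1053 and 1037 normalized counts in A to D and 1192, 1171, 1274, 1333 and 1348 in E to I, with control A among the sgCcnd1 values (log2 fold change 0.21, standard error 0.08, limma adjusted p = 0.372). Onecut1 had a log2 fold change of 1.23 (0.77 without H) and spread from 46 to 632 normalized counts within sgCcnd1. Klf15, chosen by role after the values were seen and known to drive branched-chain breakdown, had a log2 fold change of 0.11, at a limma adjusted p of 0.758. Among 10 ATF4 targets, Chac1 (log2 fold change 0.87) and Trib3 (0.48) were higher at an unadjusted limma p under 0.05 (2 of 10, against 5.22% of all genes tested), with 5 above 0 and a median of -0.03. Of 7 synthesis enzymes tested 0 reached that level, with a median of -0.04.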
